A study of Homo sapiens with 3 samples.

Results

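The TRIM genes were taken as every gene symbol of the deposited table made of TRIM and a number, with at most a letter A, B, C or L and a digit after it. Pseudogene symbols and hyphenated readthrough symbols were left out. The rule found 72 of the 35880 symbols, and all 72 were typed as protein coding in GENCODE release 29. Their proteins are built around the tripartite motif, a RING finger, B-boxes and a coiled coil, and most are E3 ubiquitin ligases whose C-terminal domain selects the substrate. Family members act in transcriptional repression, innate immunity against viruses, microtubule-based processes and protein quality control, and some are made mainly in muscle, neurons or testis.

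RNA was measured in untreated HEK293T, an established human embryonic kidney line with SV40 large T antigen, grown in high-glucose DMEM with serum and harvested below full confluence. Oligo-dT-captured RNA was made into 3 directional libraries, called biological replicates 1, 2 and 3 in the labels, and the libraries formed 1 group with no treated or mutant arm. The data therefore answered at which level each TRIM gene stood in these cells and through which transcripts, and the design held no comparison between conditions. Abundance was in TPM, the transcripts-per-million unit, which relates reads to transcript length and sums to 1000000 in every library, so that levels of different genes can be set side by side but depth is not kept. The separate cultures behind the replicates were not described further, and p-values measure the spread between these 3 libraries. All 6 of 6 neurofilament and epithelial genes typical of HEK293 cells were above 1 TPM. Among them were VIM at 401 ± 8.62 TPM and KRT18 at 55.2 ± 1.55 TPM (SD, n = 3). Of protein-coding symbols above 0 TPM, 70.7% were also above that level. The list was chosen with earlier results of these data known, so the count is no check of the line.

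The family was dominated by 1 gene. TRIM28, the corepressor that KRAB zinc-finger proteins bring to chromatin, stood at 537, 537 and 541 TPM in replicates 1, 2 and 3. That was 38.9% ± 0.406 of the summed TRIM TPM (SD, n = 3), and the family sum was 1386 ± 19.9 TPM or 0.139% ± 0.00199 of all TPM. TRIM27, a nuclear ligase first found fused to the RET kinase, followed at 128, 129 and 132 TPM, and TRIM28 was 4.16 ± 0.0429 times as high within libraries. TRIM11, which acts in protein quality control, stood at 71.1, 68.7 and 70.1 TPM. TRIM65, a ligase of the RNA sensor MDA5, stood at 65.3, 63.6 and 68.6 TPM. The ranges of these 4 genes did not overlap, and together they held 58.0% ± 0.342 of the family sum.

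Below them the levels formed a long slope. Of the 72 genes, 10 averaged at least 30 TPM, 15 averaged from 10 to 30 TPM, 18 from 1 to 10 TPM, 15 lay above 0 and below 1 TPM, and 14 were listed at 0 in every library. Of the 58 genes above 0, 50 were above 0 in all 3 libraries and 8 in only 1 or 2. In the order of means, 43 of 57 neighbouring pairs had overlapping library ranges and 14 did not. From TRIM2 (20.4 ± 0.644 TPM) down to TRIM16L (12.9 ± 0.605 TPM) every neighbouring pair overlapped, although genes further apart in that stretch, such as TRIM2 and TRIM4, did not overlap. The next separations came below TRIM16L, below TRIM35 (9.61 ± 0.476 TPM), and between TRIM9 and TRIM45.

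Each level, as log2(TPM + 0.01), was set against 1 TPM in a two-sided moderated test with limma, adjusted by Benjamini-Hochberg over all 21990 symbols above 0 in at least 1 library. Of the 58 TRIM genes tested, 41 were above 1 TPM (70.7%) and 13 below (22.4%) at an adjusted p under 0.05. Over all symbols tested, 58.5% were above and 33.9% below, and over protein-coding symbols 70.7% were above and 23.7% below, so the TRIM shares were close to those of protein-coding genes at large. The median of the mean level was 4.70 TPM over the 72 TRIM genes, against 6.25 TPM over protein-coding symbols. The share listed at 0 was 19.4% of TRIM genes and 13.0% of protein-coding symbols. Differences on this scale understate those of low genes.

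**Figure D1:**
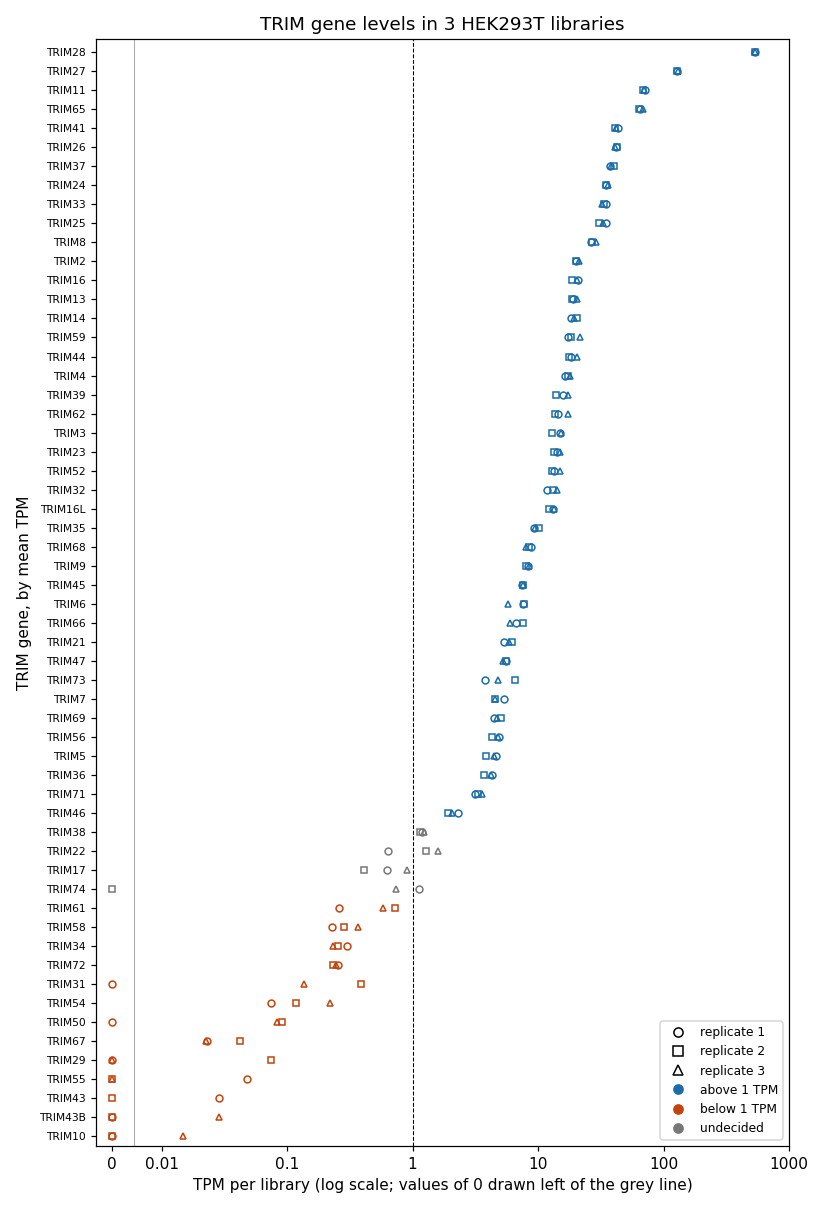
TPM of the 58 TRIM genes above 0 in each of 3 libraries (circle, square and triangle for replicates 1, 2 and 3; log axis, values of 0 drawn left of the grey line), ordered by mean and coloured by the test against 1 TPM (dashed line). TRIM28 stood apart at the top, 41 genes were above 1 TPM, and scatter between libraries widened among genes under 1 TPM.

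TRIM17, TRIM22, TRIM38 and TRIM74 were the 4 genes called neither above nor below 1 TPM. TRIM38, which dampens signalling from Toll-like receptors, stood at 1.19, 1.14 and 1.23 TPM, with a log2 difference of 0.24 ± 0.12 (SE) and a limma adjusted p of 0.113. All 3 of its values lay just over the level. TRIM22, an interferon-induced antiviral protein, had 0.639, 1.28 and 1.59 TPM (log2 difference 0.13 ± 0.30, adjusted p 0.696), so that its libraries lay on both sides. TRIM17, studied for its role in neuronal apoptosis, had 0.623, 0.409 and 0.894 TPM (log2 difference -0.70 ± 0.28, adjusted p 0.0658), and all 3 values lay below the level. TRIM74 was listed at 0 in replicate 2 and had 1.13 and 0.731 TPM in replicates 1 and 3 (log2 difference -2.31 ± 1.53, adjusted p 0.210). TRIM17 was below 1 TPM by limma without replicate 3 (adjusted p 0.0487). With transcripts under 1000 bases left out, TRIM22 was below 1 TPM (log2 difference -2.46, adjusted p 0.000234), TRIM17 was below it (adjusted p 0.00743) and TRIM38 was above it (adjusted p 0.038).

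The PHD and bromodomain genes encode nuclear proteins that read histone tails, and all 4 were above 1 TPM, against 70.7% of protein-coding symbols. Beside TRIM28, TRIM24 (a reader of histone H3 and nuclear receptor cofactor) stood at 34.6, 34.7 and 36.4 TPM. TRIM33, which acts with SMAD proteins, stood at 34.7, 33.8 and 32.5 TPM, and its range overlapped that of TRIM24. TRIM66, described as a chromatin reader of male germ cells, stood at 6.71, 7.55 and 5.93 TPM. The class summed to 614 ± 1.39 TPM, and TRIM28 was 15.3 ± 0.360 times as high as TRIM24 within libraries. Of the genes for the machinery through which TRIM28 silences chromatin, 14 of 14 corepressor partners in the data were above 1 TPM. The background was 58.5% of all symbols and 70.7% of protein-coding symbols. The list was chosen with earlier results of these data known, so the count is no test of an excess among these partners. Among them the histone deacetylase gene HDAC1 averaged 338 ± 6.77 TPM, the HP1 gene CBX3 300.1 ± 1.81 TPM and the H3K9 methyltransferase gene SETDB1 45.8 ± 1.49 TPM. The lowest partner was the KRAB zinc-finger gene ZNF10 at 4.25 ± 0.271 TPM.

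SPRY genes, whose C-terminal domain binds substrates such as viral capsids or immunoglobulin, formed the largest class with 38 members and the widest range. Of these, 17 were above 1 TPM, 7 below, 3 undecided and 11 listed at 0, and the class median was 0.906 TPM. TRIM27, TRIM11 and TRIM65 led it. TRIM41, a ligase of protein kinase C, followed at 42.98, 40.8 and 41.6 TPM. TRIM26, which acts on the interferon pathway, could not be ranked against it at 41.8, 42.4 and 41.2 TPM. TRIM4, TRIM39 and TRIM62 averaged 17.3 ± 0.766, 15.6 ± 1.796 and 15.2 ± 1.90 TPM. TRIM35 (9.61 ± 0.476 TPM), TRIM68 (8.42 ± 0.347 TPM, an androgen receptor cofactor), TRIM6 (7.02 ± 1.12 TPM), TRIM47 (5.43 ± 0.190 TPM) and TRIM7 (4.82 ± 0.486 TPM, a glycogenin partner) lay lower. Members known from erythroid cells or stomach stood under 1 TPM. TRIM58, which degrades dynein in erythroblasts, had 0.229, 0.284 and 0.365 TPM. TRIM50, known from gastric parietal cells, was listed at 0 in replicate 1 and had 0.0906 and 0.0822 TPM in replicates 2 and 3. TRIM10, an erythroid gene, had 0.0149 TPM in replicate 3 alone.

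Of 10 TRIM genes known to be induced by interferon, 7 were above 1 TPM in these unstimulated cells, TRIM34 was below it, and TRIM22 and TRIM38 were undecided. That count was near the background of 70.7% of protein-coding symbols, and the median of the 10 was 4.70 TPM. TRIM26 was the highest, and TRIM25, the ligase of the RNA sensor RIG-I, followed at 34.7, 30.5 and 33.1 TPM. TRIM14, an adaptor on the mitochondrial protein MAVS, stood at 18.4, 20.3 and 19.3 TPM. TRIM21, the cytosolic antibody receptor, stood at 5.37, 6.15 and 5.81 TPM. TRIM69, TRIM56 (a positive regulator of antiviral signalling) and TRIM5 (which binds retroviral capsids) averaged 4.77 ± 0.318, 4.64 ± 0.281 and 4.34 ± 0.410 TPM. TRIM34, a relative of TRIM5, stood at 0.298, 0.256 and 0.231 TPM. Among 15 genes of the type I interferon response outside the family, 13 were above 1 TPM, against 70.7% of protein-coding symbols. The list holds receptors and kinases such as IFNAR1, JAK1 and TYK2 beside interferon-stimulated genes such as MX1 and IFIT1. It was chosen with earlier results of these data known, so the count is no test of an excess or of an active response. IRF7 (0.0102 ± 0.0177 TPM) and OAS1 (0.0320 ± 0.0222 TPM) were the 2 below.

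Because interferon-stimulated genes carry response elements near their start, the promoter windows of RefSeq on GRCh38.p14 (250 bases before and 50 after the start) were searched for GAAA, any 2 bases and GAAA again, or on the other strand TTTC, any 2 bases and TTTC. Overlapping matches were counted. A match was present in 3.57% of 35116 windows, or in 4.38% of 27305 symbols with a window. Windows were found for 56 of the 72 TRIM genes, and 10 of the 56 held a match. Of the 9 interferon-inducible TRIM genes with a window, 6 held a match (TRIM5, TRIM14, TRIM21, TRIM26, TRIM34 and TRIM69), against 4 of the other 47 (TRIM2, TRIM16, TRIM44 and TRIM64C). A match is a run of letters and not a measured binding site. The 250 bases upstream of 4 of the 6 follow, 5′ to 3′ on the gene's strand, with the matched letters in capitals, to show where the runs lie.
TRIM5 (chr11:5685075-5685324, minus strand): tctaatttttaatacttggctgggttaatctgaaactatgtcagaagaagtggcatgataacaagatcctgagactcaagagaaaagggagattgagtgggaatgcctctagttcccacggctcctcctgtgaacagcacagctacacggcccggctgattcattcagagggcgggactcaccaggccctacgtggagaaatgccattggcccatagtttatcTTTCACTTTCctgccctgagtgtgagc
TRIM34 (chr11:5624751-5625000, plus strand): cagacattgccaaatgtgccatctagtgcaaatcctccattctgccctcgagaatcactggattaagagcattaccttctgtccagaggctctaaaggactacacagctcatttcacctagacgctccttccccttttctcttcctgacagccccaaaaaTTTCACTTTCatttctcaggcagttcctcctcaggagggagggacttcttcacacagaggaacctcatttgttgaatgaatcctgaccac
TRIM14 (chr9:98119223-98119472, minus strand): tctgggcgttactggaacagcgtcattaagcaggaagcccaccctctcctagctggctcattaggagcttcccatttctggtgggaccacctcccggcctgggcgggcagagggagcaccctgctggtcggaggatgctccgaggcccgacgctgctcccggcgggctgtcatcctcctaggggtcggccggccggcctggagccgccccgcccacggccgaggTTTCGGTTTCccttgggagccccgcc
TRIM26 (chr6:30213407-30213656, minus strand): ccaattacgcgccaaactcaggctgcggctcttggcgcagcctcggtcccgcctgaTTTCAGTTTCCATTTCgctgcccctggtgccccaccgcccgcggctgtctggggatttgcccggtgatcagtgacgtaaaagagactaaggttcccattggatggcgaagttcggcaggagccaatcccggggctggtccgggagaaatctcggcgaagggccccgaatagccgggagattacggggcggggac
In TRIM5 the run begins 27 bases and in TRIM14 26 bases before the start, in TRIM34 90 bases before it, and in TRIM26 a pair of overlapping runs begins 194 and 188 bases before it. In TRIM69 it begins 62 bases before the start. The overlapping pair of runs in TRIM21 lies after the start, from base 18. Genes of the list with a run spanned its whole range of levels, with TRIM26 at 41.8 ± 0.624 TPM and TRIM34 at 0.261 ± 0.0339 TPM.

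The genes with a MATH, ARF, filamin or transmembrane module at the C-terminus were all above 1 TPM (5 of 5, median 19.1 TPM). Of protein-coding symbols above 0 TPM, 70.7% were above that level, so a class of 5 genes is not set apart by this count. TRIM37, a centrosomal and peroxisomal ligase mutated in mulibrey nanism, led them at 37.7, 40.4 and 38.3 TPM. TRIM13, anchored in the endoplasmic reticulum, stood at 19.1, 18.6 and 20.6 TPM. TRIM59, also membrane-anchored, stood at 17.3, 18.3 and 21.5 TPM, with replicate 3 the highest. TRIM23, which carries an ARF GTPase domain, stood at 14.1, 13.3 and 15.1 TPM. TRIM45, with a filamin repeat, was lowest and tightest at 7.48, 7.53 and 7.55 TPM.

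In the class without a RING, 4 of 5 genes were above 1 TPM, near the 70.7% of protein-coding symbols, with TRIM29 as the exception. Each gene was put in a single class, so this class need not hold every TRIM gene whose protein lacks the RING. TRIM16, a B-box protein with roles in autophagy of damaged membranes, stood at 20.8, 18.5 and 20.6 TPM. TRIM44, which carries a zinc finger of the ubiquitin-protease type, stood at 18.4, 17.6 and 20.4 TPM, and TRIM16L at 13.2, 12.2 and 13.3 TPM. TRIM29, known from squamous epithelia, had 0.0739 TPM in replicate 2 and was listed at 0 in replicates 1 and 3. Among the 8 genes with no named C-terminal domain, 4 were above 1 TPM. TRIM8, a regulator of NF-kappaB and cytokine signalling, led at 26.5, 26.9 and 29.01 TPM, and TRIM52, whose RING carries a long acidic insert, stood at 13.4, 12.9 and 14.8 TPM. TRIM31, a ligase of MAVS, was listed at 0 in replicate 1 and had 0.386 and 0.135 TPM in replicates 2 and 3. TRIM61 had 0.261, 0.726 and 0.580 TPM, and TRIM40, a gene of the digestive tract, was listed at 0. The calls below 1 TPM of TRIM31 (limma adjusted p 0.0366) and TRIM61 (0.0435) were the weakest of the 13: the first was lost without replicate 2 or 3 and the second without any 1 library (adjusted p 0.0524 to 0.106 in those fits).

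The NHL genes, whose beta-propeller binds RNA or protein, were above 1 TPM in 4 of 4 cases, against 70.7% of protein-coding symbols. TRIM2, a ligase of the neurofilament light chain, stood at 20.2, 19.9 and 21.2 TPM, and the gene of that substrate, NEFL, averaged 52.7 ± 0.482 TPM. TRIM3, a brain-enriched relative, stood at 14.9, 12.8 and 15.3 TPM. TRIM32, mutated in a limb-girdle muscular dystrophy, stood at 11.7, 13.2 and 14.2 TPM. TRIM71, the stem cell factor regulated by let-7 microRNAs, stood at 3.14, 3.34 and 3.57 TPM.

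Genes with the microtubule-targeting COS box divided by their partner domains. With a fibronectin repeat and SPRY, 3 of 4 were above 1 TPM, near the 70.7% of protein-coding symbols. TRIM9, a neuronal ligase of axon branching, stood at 8.34, 7.94 and 8.50 TPM, TRIM36 averaged 4.08 ± 0.297 TPM, and TRIM46, which bundles microtubules in the proximal axon, stood at 2.32, 1.91 and 2.05 TPM. TRIM67, a brain gene, had 0.0231, 0.0424 and 0.0224 TPM. Of the 5 TRIM genes best known from neurons (TRIM2, TRIM3, TRIM9, TRIM46 and TRIM67), 4 were thus above 1 TPM. The 5 summed to 42.7 to 47.1 TPM. That count was near the 70.7% of protein-coding symbols, and the list was chosen with earlier results of these data known. Without SPRY, none of 4 COS genes was above 1 TPM. TRIM54 (MuRF3) had 0.0741, 0.118 and 0.218 TPM. TRIM55 (MuRF2) had 0.0482 TPM in replicate 1 alone, and TRIM63 (MuRF1), the atrophy ligase of muscle, and the testis gene TRIM42 were listed at 0.

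The TRIM genes chosen for striated muscle and for testis were low or listed at 0. Of 4 muscle TRIM genes, 3 were below 1 TPM and TRIM63 was listed at 0. The highest, TRIM72 (MG53), which repairs the muscle plasma membrane, had 0.256, 0.232 and 0.244 TPM. The 10 muscle markers outside the family summed to 2.38 to 2.59 TPM, with 0 above 1 TPM, 6 below, ACTA1 undecided, and MYH1, MYH2 and MYH7 listed at 0. Of 13 testis TRIM genes, 11 were listed at 0 (TRIM42, TRIM48, TRIM49, TRIM49B, TRIM49C, TRIM51, TRIM60, TRIM64, TRIM64B, TRIM64C and TRIM77). TRIM43 had 0.0287 TPM in replicate 1 and 9.55e-08 TPM in replicate 3, and TRIM43B had 0.0286 TPM in replicate 3 alone. TRIM66, described above as a reader of male germ cells, was not among the 13. It was above 1 TPM, at 6.71, 7.55 and 5.93 TPM. The 8 male germ cell markers summed to 0.319 to 0.443 TPM, and 5 of them, DAZL, TNP1, PRM1, PRM2 and ACRV1, were listed at 0.

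**Figure D2:**
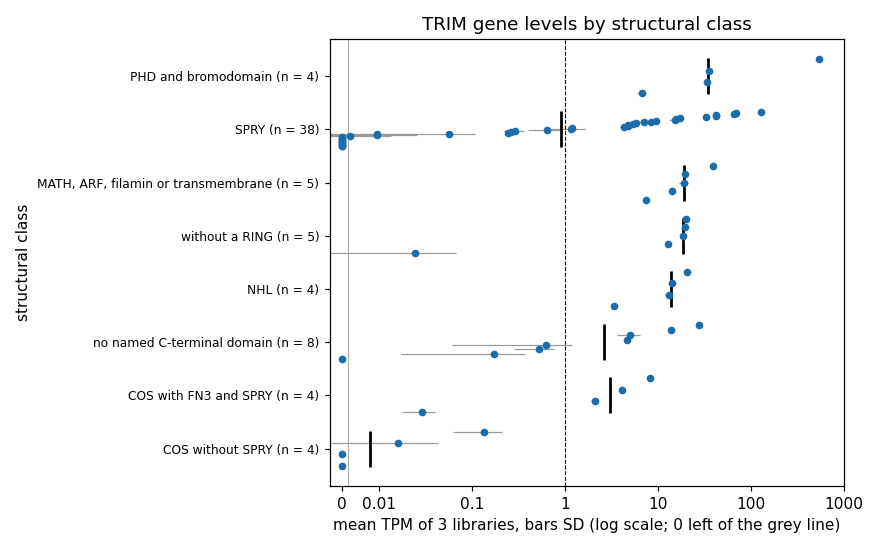
Mean TPM of each of the 72 TRIM genes by structural class (points, with SD over 3 libraries as bars; log axis, values of 0 drawn left of the grey line, black ticks the class medians, dashed line 1 TPM). The 4 PHD and bromodomain genes, 4 NHL genes and 5 MATH, ARF, filamin or transmembrane genes all lay above 1 TPM. The 38 SPRY genes ran from 0 to 129 TPM, and the 4 COS genes without SPRY lay below 1 TPM. Of protein-coding symbols above 0 TPM, 70.7% were called above 1 TPM.

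TRIM genes lie in several chromosomal groups (GENCODE 29 on hg38), and neighbours in a group often differed widely. Chromosome 11 holds 19 of the 72. On chromosome 1, TRIM11 (chr1:228393673-228406840) and TRIM17 (chr1:228407940-228416861) lie 1099 bases apart on the minus strand. TRIM11 averaged 69.9 ± 1.19 TPM and TRIM17 0.642 ± 0.243 TPM. On chromosome 17, TRIM47 (chr17:75874161-75878575) and TRIM65 (chr17:75880335-75897003) lie 1759 bases apart, also on the minus strand, at 5.43 ± 0.190 and 65.8 ± 2.53 TPM. In the extended major histocompatibility region of chromosome 6, 7 genes lie between bases 28903002 and 30343729. There TRIM27, TRIM26 and TRIM39 were above 1 TPM, while TRIM31 and TRIM10 were below and TRIM40 and TRIM15, both known from the gut, were listed at 0. TRIM15 ends 11758 bases before TRIM26, which averaged 41.8 TPM.

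Of 8 genes near the chromosome 11 end that holds TRIM21 and TRIM66 (bases 4384897 to 8682694), 6 were above 1 TPM. TRIM22 lies on the plus strand inside the annotated span of TRIM5, which is on the minus strand. The libraries were directional, but the strand setting of the quantification was not given in the sources used here, and its effect was not tested. Of 31-base transcript words, TRIM5 shared 9.35% with other symbols on the same strand and 9.89% on either strand. For TRIM22 these were 16.1% and 16.7%, so few words of this pair were shared only on the opposite strand. On chromosome 5, TRIM7, TRIM41 and TRIM52 lie between bases 181193924 and 181261139. All 3 were above 1 TPM, and TRIM41 was 3.05 ± 0.217 times as high as TRIM52 within libraries. The 9 testis copies further along chromosome 11 (bases 49027501 to 90042025) were listed at 0 in every library.

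**Figure D3:**
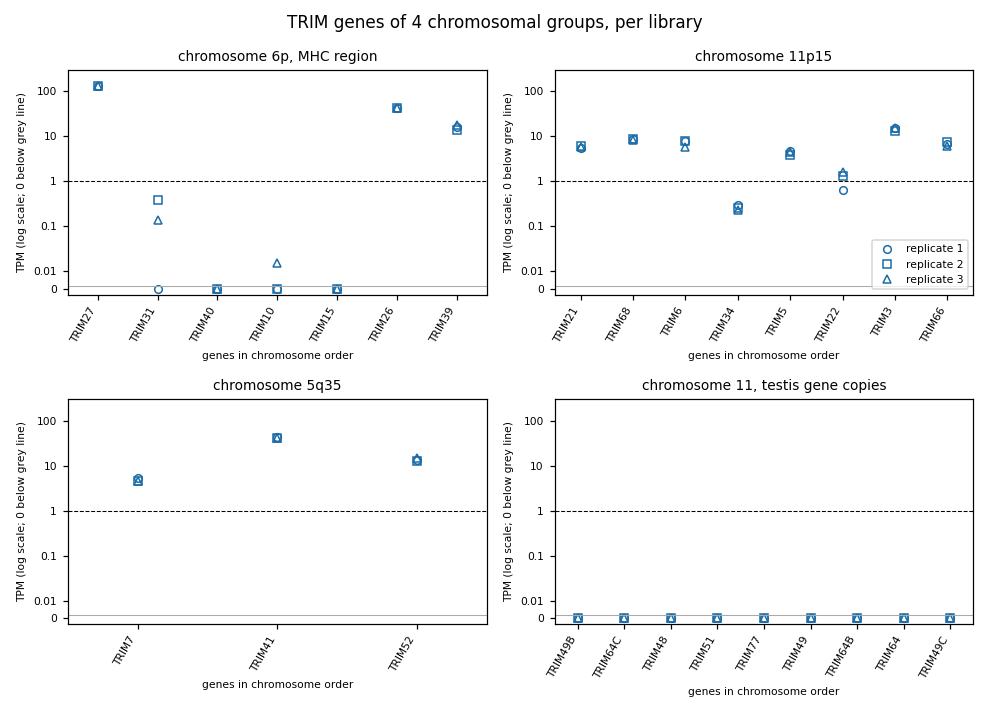
TPM per library (log axis, values of 0 below the grey line, dashed line 1 TPM) of TRIM genes in 4 chromosomal groups, in chromosome order and not to distance. In the chromosome 6 group TRIM27, TRIM26 and TRIM39 lay above 1 TPM with 4 low genes between TRIM27 and TRIM26, and the 9 testis copies of chromosome 11 were all at 0.

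Some members are near-identical copies, whose reads could be split between them or lost to each other. Each gene's transcripts were cut into words of 31 bases. The percent of words also found under another symbol on the same strand was taken as the shared sequence. Over the transcripts matched to GENCODE 29, 28 of the 72 genes shared under 1% and 13 over 50%. TRIM28 shared 0.405%, TRIM11 1.78% and TRIM65 5.26%. Some shares were larger with either strand counted, as in TRIM59 (36.3% against 17.6%) and TRIM37 (4.64% against 0.106%). TRIM74 shared 95.6% of its words with TRIM73. The coding sequences of the pair differed at 4 of 753 aligned bases (99.5% identity). The first 90 coding bases of each, from the GENCODE 29 transcripts, are shown because a single base, in capitals, tells the copies apart in this stretch.
TRIM73: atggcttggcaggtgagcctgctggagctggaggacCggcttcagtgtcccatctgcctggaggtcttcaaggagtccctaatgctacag
TRIM74: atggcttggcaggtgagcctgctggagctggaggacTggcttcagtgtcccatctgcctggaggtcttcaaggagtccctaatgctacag
TRIM73 (chr7:75395063-75410996, plus strand) was listed at 3.77, 6.58 and 4.76 TPM, and TRIM74 (chr7:72959485-72969466, minus strand) at 1.13, 0 and 0.731 TPM. TRIM73 was highest where TRIM74 was at 0. Their sum was 4.90, 6.58 and 5.49 TPM, and TRIM74 held 23.1%, 0% and 13.3% of it. The split between the copies is therefore uncertain, while the sum was above 1 TPM in every library.

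The other copies were low or not detected, apart from TRIM16 and TRIM16L. TRIM16 shared 38.9% of its words with TRIM16L and TRIM16L 52.4% with TRIM16, and their coding sequences differed at 14 of 1047 aligned bases. Their sum was 34.0, 30.7 and 33.9 TPM. TRIM43 and TRIM43B differed at 7 of 1341 coding bases, TRIM49 and TRIM49C at 5 of 1359, and TRIM64 and TRIM64B at 7 of 1350. No copy of these 3 sets exceeded the 0.0287 TPM of TRIM43 in replicate 1. TRIM34 shared 82.0% of its words with the readthrough symbol TRIM6-TRIM34, which had 0.0348 TPM in replicate 3 alone, and TRIM6 shared 27.2% with it. TRIM39 shared 27.9% with the readthrough TRIM39-RPP21, listed at 0. The level of TRIM34, at 0.261 TPM, therefore rests mainly on words it does not hold alone. Of 38 further TRIM symbols outside the rule, 6 were above 0, the highest being the pseudogene TRIM60P18 at 1.69 ± 0.209 TPM.

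Most of the TPM of most TRIM genes sat in transcripts annotated as protein coding. For genes of at least 1 TPM with transcripts of both kinds, log2 of coding over other transcript TPM was tested against 0 with limma over all 10534 such genes. Of 36 TRIM genes tested, 26 had more coding TPM (72.2%) and 4 more non-coding TPM (11.1%), against 76.9% and 10.8% of all genes tested, so the family was near the background. With 1 library left out, 21 to 24 TRIM genes had more coding TPM. The median log2 ratio was 1.92 over the TRIM genes and 2.12 over all genes tested. TRIM28 held 86.0% ± 0.327 of its TPM in coding transcripts. Its 2960-base transcript TRIM28-201 stood at 412, 407 and 419 TPM, and the other 14.0% lay in transcripts annotated as retained introns. TRIM24, TRIM37, TRIM4 and TRIM23 held 95.5%, 92.9%, 92.6% and 91.4% in coding transcripts.

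The 4 genes called with more non-coding TPM were TRIM69, TRIM16L, TRIM73 and TRIM8. TRIM16L held 4.28% ± 3.80 in coding transcripts (log2 ratio -5.91 ± 1.58 SE, limma adjusted p 0.0311), and the rest in transcripts typed only as processed. TRIM73 held 24.9% ± 6.39 (log2 ratio -1.61 ± 0.24, adjusted p 0.00617), where the 458-base TRIM73-206 alone stood at 2.47, 3.80 and 2.52 TPM. TRIM8 held 41.6% ± 3.09 (log2 ratio -0.49 ± 0.10, adjusted p 0.0163), and its remainder lay mainly in processed transcripts and in targets of nonsense-mediated decay. The limma call on TRIM16L was lost without replicate 1 or 3 (adjusted p 0.0626 and 0.0715), and that on TRIM8 without replicate 2 (adjusted p 0.06). With decay targets counted as coding, the TRIM8 ratio turned to a log2 value of 0.68 (limma adjusted p 0.00758). TRIM69 held 0.138% ± 0.239 of its matched TPM in coding transcripts (log2 ratio -7.02 ± 0.33, adjusted p 0.000567). That value says little of the gene, since the transcript highest in all 3 libraries, at 3.30, 3.03 and 2.37 TPM, had no match in GENCODE 29 and entered neither side.

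**Figure D4:**
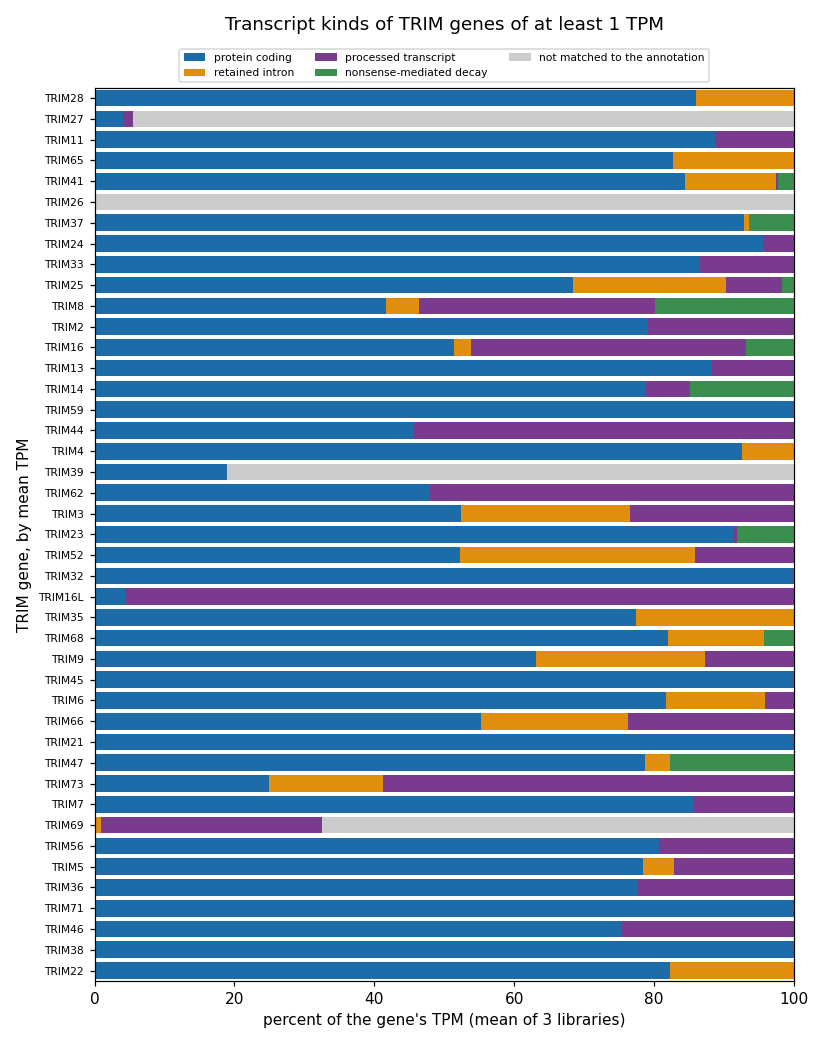
Percent of each gene's TPM, as the mean of 3 libraries, by the GENCODE 29 kind of transcript for the 43 TRIM genes of mean TPM of at least 1, highest gene at the top. Coding transcripts (blue) held most of the TPM in most genes, TRIM16L was almost wholly in processed transcripts, and TRIM26, TRIM27, TRIM39 and TRIM69 lay mainly in transcripts without a match (grey).

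Transcripts without a match were confined to 9 TRIM genes and numbered 331 of the family's 784. Of these, 311 belonged to the 7 chromosome 6 genes of the histocompatibility region, and 261 of the 331 had the same length as a matched transcript of their gene. TRIM26 had all its TPM in them, at 41.8, 42.4 and 41.2 TPM, while its 8 matched transcripts were listed at 0. TRIM27 had 119, 122 and 126 TPM in them and 8.98, 6.73 and 5.80 TPM in matched ones. In TRIM17 the 8 transcripts without a match carried the same TPM as the 8 with one, at 0.312, 0.205 and 0.447 TPM for each kind. Gene sums hold both kinds, so the levels given above stand, but the transcript kinds of TRIM26, TRIM27 and TRIM39 rest on a small or empty part of their TPM.

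The answer changed with the unit where short non-coding transcripts stood beside long coding ones, since TPM counts molecules of any length alike and reads scale with length. TRIM44 is the plainest case. Its 637-base processed transcript TRIM44-202 stood at 9.55, 9.09 and 12.1 TPM and its 12964-base coding transcript TRIM44-201 at 8.83, 8.56 and 8.26 TPM, so coding transcripts held 45.7% ± 4.47 of the TPM. The same coding transcript held 96.2% ± 0.699 of the gene's estimated reads (TPM times effective length). In TRIM62, coding transcripts held 47.9% ± 4.94 of TPM and 93.4% ± 0.707 of estimated reads, and in TRIM8 41.6% ± 3.09 and 69.0% ± 2.19. TRIM22 went the other way: a 508-base coding fragment, TRIM22-207, held 82.3% ± 9.27 of its TPM and 46.3% ± 17.3 of its estimated reads. By reads its ratio was not called in either direction (log2 -0.20, limma adjusted p 0.673). Of the 36 genes, 31 were called coding and 3 non-coding by estimated reads, and TRIM8 was one of those whose direction turned. TRIM69, TRIM16L and TRIM73 remained below 50% coding by both measures.

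**Figure D5:**
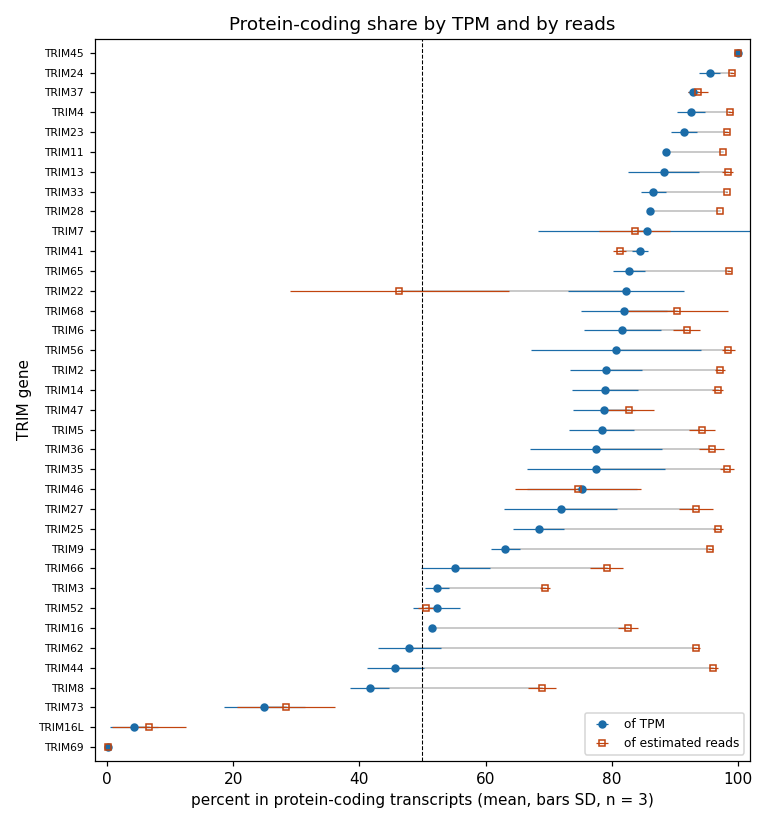
Percent of TPM (filled circles) and of estimated reads (open squares) in protein-coding transcripts for the 36 TRIM genes tested, over transcripts matched to GENCODE 29 (mean of 3 libraries, bars SD, dashed line 50%). TRIM44, TRIM62 and TRIM8 lay under 50% by TPM and over it by reads. The means of TRIM22 lay the reverse way, with its bar by reads crossing 50%.

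The main transcript, the most abundant in a library, was the same in all 3 libraries for 27 of 34 TRIM genes of at least 5 TPM with more than 1 transcript. TRIM8, TRIM16, TRIM26, TRIM32, TRIM39, TRIM62 and TRIM66 were the 7 exceptions. In TRIM8 the coding TRIM8-201 at 6.45, 7.52 and 7.05 TPM was within the spread of the processed TRIM8-204 at 7.47, 7.46 and 5.86 TPM. In TRIM39 copies of equal TPM shared the top place, and the transcript holding it also changed. Among matched transcripts it was TRIM39-202 in replicate 1 (0.758 TPM) and TRIM39-205 in replicates 2 and 3 (0.741 and 0.962 TPM).

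The spread between libraries differed widely from gene to gene. Among the 43 TRIM genes of at least 1 TPM the coefficient of variation ran from 0.390% in TRIM28 to 41.6% in TRIM22, with a median of 6.06%, against 4.54% over all such symbols. An F-test that set the variance of a gene against that of genes of like level, adjusted over 13475 symbols, called 0 of the 43 TRIM genes and 0% of all symbols. With 3 libraries, a gene that was not called is not shown to be stable. At an unadjusted p under 0.05 it marked 1 TRIM gene, TRIM73 (F 8.73, p 0.0427, adjusted p 0.964), and 4.11% of all symbols. TRIM59, TRIM62 and TRIM39 came next, with unadjusted p-values of 0.0793, 0.0829 and 0.0918 and adjusted p 0.964.

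Relatives with the same tripartite motif under other symbols ran from 0 to 58.1 TPM. Of 10, 5 were above 1 TPM, against 70.7% of protein-coding symbols above 0 TPM. MEFV and CMYA5 were below, BSPRY and TRIML2 undecided, and TRIML1 listed at 0. Among those above 1 TPM were the microtubule-associated MID1 (58.1 ± 0.861 TPM) and MID2 (22.2 ± 0.843 TPM) and the nuclear body gene PML (17.6 ± 1.72 TPM). The E2 ubiquitin-conjugating genes that RING ligases work with were above 1 TPM in 8 of 8 cases, against 70.7% of protein-coding symbols. This list too was chosen with earlier results of these data known, so the count is no test of an excess. UBE2D3 averaged 286 ± 12.7 TPM and UBE2W, the lowest of the 8, 10.8 ± 0.750 TPM.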

How the data were processed

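The deposited table gave, for 185299 transcripts of 3 HEK293T libraries, TPM made by the authors with kallisto on hg38, per the submitters' processing notes and file headers. Neither version nor options nor strand setting is given in the sources used here. It also held estimated counts, deposited without a library name, that sum to 33184885. Divided by effective length and rescaled to a sum of 1000000, they equalled replicate 1 TPM within a relative difference of 1.08e-05. By them, 1 TPM over 2000 effective bases is about 47.5 reads. TPM keeps no depth, so no counting intervals were given and 0 means only listed at 0.

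TPM was summed by symbol. Transcripts were matched by identifier to GENCODE 29 (90.4% matched), which may not be the release the authors used. Unmatched transcripts entered gene sums but no transcript kind. Levels, coding over other TPM and spread were tested with limma 3.58.1 in R 4.3.3 (mean-variance trend, Benjamini-Hochberg over all symbols tested, adjusted p threshold 0.05). The pseudocount was 0.01 TPM, and the coding and spread tests used symbols of mean TPM of at least 1. For estimated reads, TPM was multiplied by the single column of effective lengths in all 3 libraries. The methods were tested on simulated data. For the spread test, genes without added variance were drawn exactly at the fitted mean-variance trend. Those runs therefore do not show that the test can call genes in the measured libraries. Tables and sequences were handled with Python 3.11.15, pandas 2.3.3 and Biopython 1.88. The TRIM members, structural classes and lists were chosen with earlier results of these data known. Genes with values per library were the highest and lowest members of each class and list, undecided genes, those called non-coding and near-identical copies. The alternatives tried were other pseudocounts, filters, levels, scalings and transcript kinds, leaving out each library, and, added after the data were seen, leaving out transcripts under 1000 bases and estimated reads for the coding test. Some items of the lists outside the family are not reported here.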

Additional observations from a re-analysis of the deposited data

How the results depend on the processing

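The count of TRIM genes above 1 TPM stayed between 40 and 43 in all alternatives, the lowest at a level of 2 TPM and the highest at 0.5 TPM, and was 41 without any 1 replicate. The count below 1 TPM was 10 to 11 without 1 replicate and 6 when only genes of mean TPM of at least 0.1 were tested, since fewer genes were then tested. The count with excess spread was 0 throughout, but the main test called 0 of 13475 symbols, so the constant 0 is no sign of robustness. The counts with more coding and more non-coding TPM were 21 to 24 and 3 without 1 replicate. TRIM28 held 38.7% to 39.1% of the family sum without 1 replicate, 34.4% of estimated reads and 39.6% over transcripts of at least 1000 bases. The log2 level of TRIM22 ran from -0.14 to 0.51 without 1 replicate and was -2.46 over long transcripts. TRIM38 was called above 1 TPM by limma without mitochondrially encoded genes (adjusted p 0.0466), without a mean-variance trend (0.0147) and over long transcripts (0.038), and TRIM17 below it with a pseudocount of 1 TPM (0.0427) and over long transcripts (0.00743). The calls on TRIM31 and TRIM61 were lost without a trend (0.0918 and 0.0838), and that on TRIM61 also without mitochondrially encoded genes (0.0578). The log2 coding ratio of TRIM62 ran from -0.26 to 0.024 without 1 replicate. By estimated reads the ratios turned direction in TRIM22 (-0.20), TRIM44 (4.66), TRIM62 (3.81) and TRIM8 (1.15). TRIM22 was not called by reads (limma adjusted p 0.673), and TRIM44 and TRIM62 were not called by TPM (0.152 and 0.462). TRIM8 alone was called in both directions, and it also turned with nonsense-mediated decay targets counted as coding (0.68). By construction, reads weight a transcript by its length. Without 1 replicate, calls on coding share were lost for TRIM7, TRIM8, TRIM16L, TRIM22, TRIM27, TRIM35, TRIM36, TRIM46 and TRIM56, and the cause was not tested. No paired analysis was possible because the 3 libraries form 1 group. With 3 libraries, and estimated counts matching replicate 1 alone, levels far under 1 TPM could not be ranked.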
